A study of Danio rerio with 4 samples.

Results

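The amino acid transporter families examined here are the genes whose symbols begin with slc1a, slc3a, slc6a, slc7a, slc36a, slc38a or slc43a. The deposited tables listed 79 such genes among 28357 genes in all, and the 77 with at least 20 unique molecular identifiers (UMIs) over the 4 libraries were used. These are 25 slc6a, 17 slc7a, 13 slc38a, 11 slc1a, 6 slc43a, 3 slc3a and 2 slc36a genes, which together held 404044 UMIs. One symbol, *slc7a6os*, matches the prefix but names the opposite-strand neighbor of *slc7a6* and not a carrier, and reads of overlapping genes may have been divided between them.

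Cells were taken from whole kidneys of adult AB zebrafish at 4 days after acute kidney injury by intraperitoneal gentamicin (20 μl for each fish of a 2.7 μg/μl solution). All 4 libraries are of this condition, there is no uninjured group, and which fish went into which library is not given in the sources used here. P-values therefore measure only the spread between these libraries, which may be technical. The tables held 9048, 9831, 6308 and 5821 cells of libraries 1 to 4, with between 59350367 and 87759842 UMIs per library, and the members took between 1295 and 1507 CPM, which scales the UMIs of a gene by the total UMIs of a library or class.

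Amino acid carriers fall into families with different jobs. In mammals, slc6a carriers bring neutral amino acids, taurine, creatine or neurotransmitters into cells with sodium, and slc1a carriers bring in acidic and small neutral amino acids. Carriers of the slc7a family exchange amino acids and many reach the membrane only when bound to an slc3a heavy chain, while slc38a, slc36a and slc43a carriers move glutamine, small neutral amino acids and branched-chain amino acids at the surface or at lysosomes. In the kidney, the proximal tubule reclaims nearly all filtered amino acids, taking them up at the apical side and releasing them at the basolateral side.

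Cells were clustered without the members, so no member defined a class, and 15 classes were named by markers of other genes. The proximal tubule epithelial cell (PTEC)-like class had 393 cells, with its 12 markers at a mean log2 ratio of 6.13 to other cells. The distal tubule (DTEC)-like class had 956 cells (6.01 over 10 markers). The renal stem cell (RSC)-like class, the nephron progenitors, had 88 cells after 39 follicle-like cells of libraries 1 and 2 were left out (4.21 over 8 markers before that). Among the others were renal interstitial cells (RIC), vascular endothelial cells (VEC), kidney mucin-secreting cells (KMSC) and blood cells, of which a suffix "cycling" marks classes with raised cell division genes. Of the RSC-like cells, 43.2% were among the 6% of cells of their library with the highest doublet scores, against 21.4% of PTEC-like and 12.6% of DTEC-like cells. The part of doublets in the RSC-like values was tested only by removing those cells.

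Libraries 1 and 2 differed from libraries 3 and 4, although the labels name no batch. Over gene totals, chi-square divided by its degrees of freedom was at least 523 across these pairs and 15.3 and 7.34 within them, and libraries 1 and 2 shared 108 barcodes and libraries 3 and 4 shared 46. Among the 52 members with a mean of at least 1 CPM over all cells, 3 were over 4-fold higher in libraries 1 and 2 (1.82% of 16823 genes were), namely *slc7a2*, *slc6a19a.1* and *slc6a19a.2*. A further 4 were over 4-fold lower there (7.88% of genes), namely *slc38a3b*, *slc1a5*, *slc7a11* and *slc6a8*. Levels of *slc1a5*, a glutamine and neutral amino acid carrier, were 4.09, 4.08, 25.3 and 33.2 CPM in libraries 1 to 4. The 13 mitochondrial protein genes had no UMI in libraries 1 and 2 and took 5.15% and 5.03% of UMIs in libraries 3 and 4, and together with mitochondrial ribosomal RNA they took 5.6%, 5.69%, 18.99% and 19.32%. CPM includes them, and leaving them out would raise every CPM value of all cells by a factor of 1.059, 1.06, 1.234 and 1.239 in libraries 1 to 4. Differences between classes are given within the library pairs as well.

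**Figure D1:**
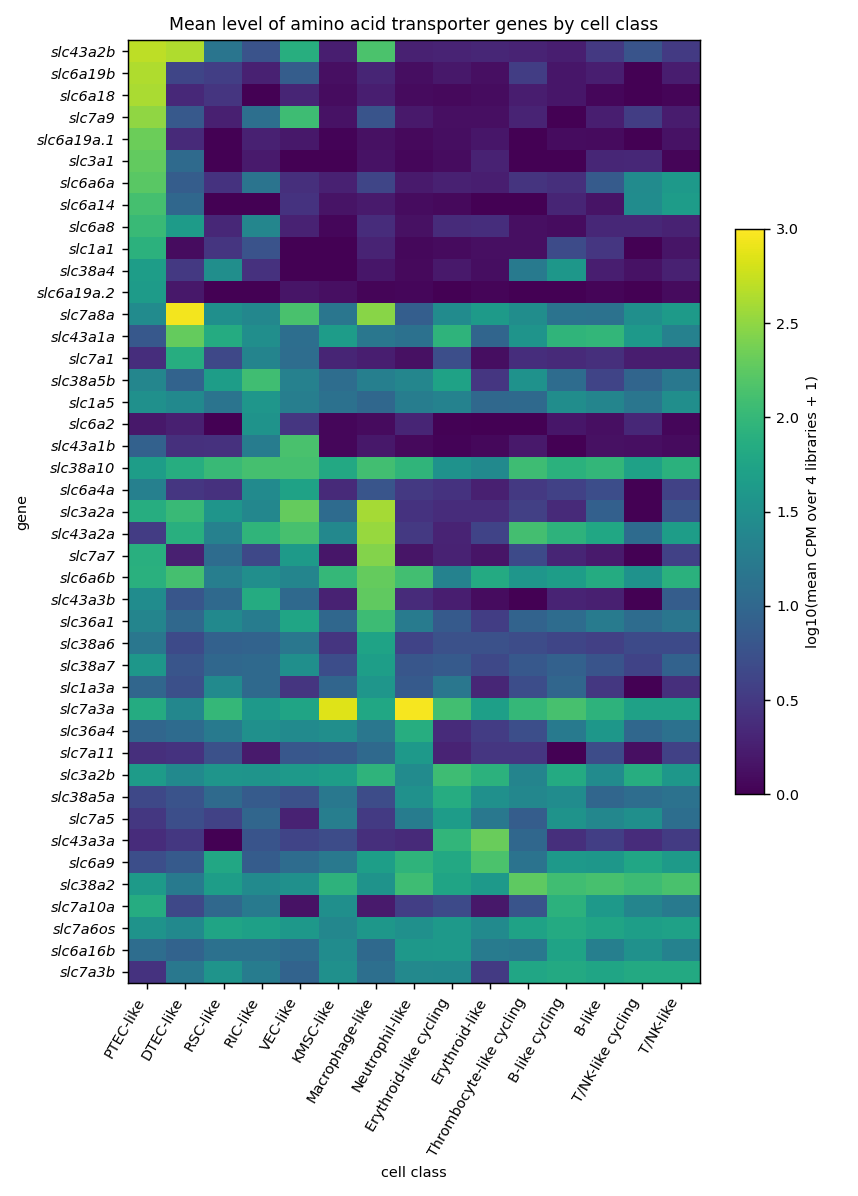
Mean CPM over the 4 libraries (color, log10 of CPM + 1) of the 43 members that reached 30 CPM in at least 1 of 15 cell classes; rows are genes, ordered by the class with the highest level. The upper rows are high in PTEC-like cells and low in most blood classes, *slc7a8a* is highest in DTEC-like cells (873 CPM) and *slc7a3a* in neutrophil-like cells (911 CPM).

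The class with the highest mean CPM was PTEC-like for 15 of the 77 members, macrophage-like for 9, and DTEC-like, neutrophil-like, RIC-like and RSC-like for 6 each. Of these, 7, 5, 3, 1, 1 and 1 did not overlap with the next class. Among the RSC-like ones, *slc1a6*, *slc38a3a* and *slc6a17* had only 2, 4 and 3 UMIs there. No share over all genes is given for these counts, so they are a description. The 15 include *slc38a4* and *slc7a2*. Without 24 cells with liver genes, described below, PTEC-like cells held 0.424 CPM of each, below the next classes (37.8 and 8.10 CPM). As a whole the members took 3507 ± 351 CPM in PTEC-like cells, 2337 ± 626 in DTEC-like cells and 954 ± 156 in RSC-like cells (SD, n = 4 libraries). The slc6a family made up much of the PTEC-like total (1651 ± 116 CPM), against 253 ± 23.9 in DTEC-like and 139 ± 28.9 in RSC-like cells.

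To find where the reabsorptive carriers were counted, PTEC-like cells were compared with all other cells. Carriers known from the apical membrane of the mammalian proximal tubule were higher in PTEC-like cells. Of 61 members tested, 19 were higher and 15 lower at the threshold of 0.05 on the adjusted p. All adjusted p-values here come from the quasi-likelihood test of edgeR, with the Benjamini-Hochberg method applied over all genes tested. In each comparison a member can pass the filter on low counts only through the class in which it is high. Its place among the called members is then a description. Among all 19773 genes tested, 19.2% were higher and 24.4% lower, so the share of members that were lower was near that of all genes. The median log2 fold change was 0.19 for the members and -0.28 for all genes.

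The sodium-coupled neutral amino acid carriers led this group. *slc6a18* is in mice an apical carrier of glycine and other neutral amino acids. It was at 369, 497, 410 and 380 CPM in PTEC-like cells of libraries 1 to 4. In all other cells it was at no more than 0.501 CPM (log2 fold change 10.63). By other cells alone it would not have passed the filter on low counts, so its place among the higher members is given as a description. *slc6a19b*, a homolog of the main apical neutral amino acid carrier, was at 625, 405, 316 and 411 CPM against no more than 1.37 (log2 fold change 9.53, SE 0.61, adjusted p = 3.38e-06). Both genes were thus at a similar order of level in all 4 libraries, and neither overlapped with other cells.

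The tandem copies *slc6a19a.1* and *slc6a19a.2* were less even. *slc6a19a.1* was at 357, 351, 55.1 and 73.6 CPM in libraries 1 to 4 (log2 fold change 9.67). *slc6a19a.2* was at 79.8, 65.8, 6.79 and 22.9 CPM. By other cells alone neither copy would have passed the filter on low counts, so their place among the higher members is given as a description. Reads of these copies may be shared, so their division is uncertain. Over the 15 classes, their patterns were the most alike of any members (Pearson's r = 0.999 of log2(CPM + 10), a description), and that of *slc6a18* was nearest to *slc6a19a.2* (r = 0.998).

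The cystine and dibasic amino acid exchanger, whose human subunits are mutated in cystinuria, consists of the heavy chain Slc3a1 and the light chain Slc7a9. *slc3a1* was at 99.6, 143, 278 and 235 CPM in PTEC-like cells and between 0.310 and 1.03 in all others (log2 fold change 8.36). By other cells alone *slc3a1* would not have passed the filter on low counts, so its place is given as a description. *slc7a9* was at 385, 345, 293 and 228 CPM against 1.55 to 3.42 (log2 fold change 7.17, SE 0.39, adjusted p = 1.43e-06). The light chain was also counted in VEC-like cells, at 174, 180, 55.9 and 55.6 CPM, where no UMI of the heavy chain *slc3a1* was found. With a floor of 3 UMIs over the class, *slc3a1* was at least 128-fold lower in VEC-like than in PTEC-like cells.

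In shares of cells, a UMI of *slc7a9* was found in 61.8% of PTEC-like cells (exact Clopper-Pearson 95% interval 56.8 to 66.7%, counting error only), of *slc6a18* in 51.9% and of *slc3a1* in 51.1%. In neutrophil-like cells, which should lack these carriers, the shares were 0.336%, 0.149% and 0.0872%, at a median of 6361 UMIs per cell against 9781. After thinning each cell to 2000 UMIs, the PTEC-like shares were 37.4%, 35.2% and 21.2%, and those of neutrophil-like cells 0.131%, 0.0784% and 0.0523%. *slc6a19b* had a UMI in 29.5% of PTEC-like cells (23.5% when thinned), a smaller share than *slc6a18* at a like CPM.

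*slc1a1* is the acidic amino acid carrier of the mammalian proximal tubule. It was at 61.8, 76.8, 112 and 83.8 CPM in PTEC-like cells and at no more than 0.577 in all others (log2 fold change 7.89). By other cells alone it would not have passed the filter on low counts, so its place is given as a description. The carriers of taurine (*slc6a6a*), creatine (*slc6a8*) and a broad set of neutral and cationic amino acids (*slc6a14*) were higher too, but chiefly in libraries 3 and 4. *slc6a6a* was at 41.4, 84.8, 288 and 273 CPM (log2 fold change 5.79, adjusted p = 0.000432). *slc6a8* was at 11.7, 8.98, 165 and 246 CPM against 0.985 to 4.05 in all other cells (log2 fold change 5.67, SE 1.16, adjusted p = 0.00372). *slc6a14* was at 14.0, 41.9, 192 and 274 CPM (log2 fold change 5.59, adjusted p = 0.00109). Each of these was above all other cells in 4 of 4 libraries.

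Some carriers placed at the basolateral side in mammals were also higher. *slc43a2b*, a homolog of a carrier of branched-chain amino acids and phenylalanine, was at 758, 645, 324 and 292 CPM in PTEC-like cells against 17.5 to 31.8 (log2 fold change 4.58, SE 0.40, adjusted p = 2.46e-05). *slc7a7*, the light chain that exports cationic amino acids, was at 104, 142, 33.9 and 29.3 CPM against 18.6 to 24.0 (log2 fold change 2.0, adjusted p = 0.00638). *slc7a8b*, of the type that exchanges neutral amino acids, had only 5.60 ± 2.20 CPM (log2 fold change 3.34). T/NK-like cells had nearly as much (5.28 ± 2.13 CPM) and overlapped with PTEC-like cells. By other cells alone *slc7a8b* would not have passed the filter on low counts, so its place is given as a description. The call of *slc7a7* was lost when cells with high doublet scores were removed. The other copy *slc7a8a* went the other way and was called as lower. It was at 52.4, 14.96, 24.1 and 16.6 CPM in PTEC-like cells of libraries 1 to 4. Over all cells it was at 83.9, 76.0, 79.0 and 75.2 CPM. The heavy chains *slc3a2a* and *slc3a2b*, given below, did not pass the test.

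The remaining higher members were *slc7a10a*, a carrier of small neutral amino acids in mammals (71.4 ± 33.9 CPM, log2 fold change 3.03, adjusted p = 9.01e-05), *slc38a7*, a lysosomal glutamine carrier (37.4 ± 7.67 CPM, log2 fold change 2.11), the serotonin carrier *slc6a4a* (19.3 ± 9.94 CPM, log2 fold change 2.70), *slc38a6* (14.6 ± 5.28 CPM), the GABA carrier *slc6a11b* (1.60 ± 0.737 CPM) and *slc38a4*. The last, a carrier that mammalian liver expresses, was at 132, 50.9, 0.754 and 0 CPM in libraries 1 to 4 (log2 fold change 5.10, adjusted p = 0.0101). *slc6a11b* passed the filter on low counts only through the PTEC-like cells, so its place here is given as a description. Other classes had higher means of *slc38a6* (macrophage-like, 53.3 CPM), *slc38a7* (macrophage-like, 47.4), *slc6a4a* (VEC-like, 52.0) and *slc7a10a* (cycling B-like, 82.7).

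Of the PTEC-like cells, 24 had at least 1% of their UMIs in 10 liver genes, and these were 13, 9, 1 and 1 cells of libraries 1 to 4. In these cells *slc38a4* was at 468 CPM and *slc7a2* at 84.7. Without them, the PTEC-like class held 0.424 CPM of each, *fabp10a*, a defining liver gene, fell from 635 to 0.636 CPM, and the log2 fold change of *slc38a4* was -1.68 (adjusted p = 0.0961). The same cells held *slc43a1b* (74.6 CPM against 1.27 in the rest of the class), *slc6a13l* (57.6 against 0.636) and *slc1a3a* (84.7 against 1.06). Without these cells 19 members were higher and 17 lower (3816 and 4751 of all genes), and 33 of the 34 calls remained.

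Among the members lower in PTEC-like cells, *slc7a3b*, a cationic amino acid carrier, was at 3.50, 1.99, 1.51 and 0 CPM against 30.4 to 39.2 in all others (log2 fold change -4.02). *slc43a2a*, the other copy of the *slc43a2b* type, was at 2.38 ± 1.75 CPM against 43.7 (log2 fold change -3.90), so these copies had opposite directions. *slc6a9*, the glycine carrier of erythroid cells and glia, was at 4.30 ± 1.06 CPM against 51.7 (log2 fold change -3.40, adjusted p = 3.37e-06). *slc43a3a*, *slc43a1a*, *slc7a5*, *slc7a6* and *slc38a5a* followed, with log2 fold changes between -3.74 and -2.85. By PTEC-like cells alone *slc7a3b*, *slc43a2a*, *slc43a3a* and *slc7a6* would not have passed the filter on low counts, so their places are given as a description. *slc7a6* had 1 UMI in PTEC-like cells, and its call was lost without library 2, 3 or 4. Those of *slc38a6* (without library 1, 2 or 4), *slc38a4* (without 1 or 2), *slc7a8a* (without 2, 3 or 4) and *slc7a1* (without 3, adjusted p = 0.0517) were lost as well, and 31 to 34 members were called when a library was left out.

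The heavy chain *slc3a2a* was at 72.9 ± 43.9 CPM in PTEC-like and 47.1 in all other cells (log2 fold change 0.77, adjusted p = 0.177). Its copy *slc3a2b* was at 43.6 ± 27.9 against 55.1 (adjusted p = 0.731). *slc1a5* was at 30.8 ± 20.3 against 16.4 (adjusted p = 0.287), *slc1a4* at 6.59 ± 7.61 against 3.15 (adjusted p = 0.397), and the lysosomal carrier *slc36a1* at 22.3 ± 16.7 against 22.6 (adjusted p = 0.798). None of these 5 passed the test, but with the library as a block *slc1a5* (log2 fold change 1.39, SE 0.27, adjusted p = 0.00174, higher in 4 of 4 libraries) and *slc3a2a* (0.64, adjusted p = 0.0269, higher in 3 of 4) did. The block also called *slc38a3b* (2.95, higher in 3 of 4) and *slc7a2* (2.96, higher in 2 of 4) as higher and *slc38a2* (-0.97) and *slc7a11* (-2.84) as lower, and lost *slc7a6* (adjusted p = 0.0526). By other cells alone *slc38a3b* and *slc7a2* would not have passed the filter on low counts, nor would *slc7a11* by PTEC-like cells alone. Their places are given as a description. Without the liver-gene cells, PTEC-like cells held only 0.424 CPM of *slc7a2*. In libraries 1 and 2 alone 31 of the 34 calls remained, in libraries 3 and 4 alone 32, and 29 in both.

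Next, the tubule segments were compared with each other. The apical carriers were higher in PTEC-like cells, while *slc7a8a*, *slc7a1*, *slc43a1a*, *slc43a2a*, *slc7a3b* and *slc38a10* were higher in DTEC-like cells. Of 35 members tested, 17 were higher in PTEC-like cells (17.5% of 9511 genes) and 6 in DTEC-like cells (19.1% of genes, a share near that of the members). The median log2 fold change was 0.97 for the members and -0.04 for all genes. *slc6a18* (log2 fold change 8.18), *slc1a1* (8.05), *slc6a19a.1* (7.68) and *slc6a19b* (7.50) led. By DTEC-like cells alone these leading members would not have passed the filter on low counts, so their places are given as a description. They were followed by *slc7a7* (5.87), *slc7a9* (5.36), *slc7a10a* (4.16) and *slc6a6a* (4.12). By DTEC-like cells alone *slc7a7* and *slc7a10a* would not have passed the filter either. The places of these followers are given as a description too. *slc3a1*, at 188.7 ± 81.8 CPM in PTEC-like cells, had 9.88 CPM in DTEC-like cells (log2 fold change 3.97, SE 0.51, adjusted p = 0.000263).

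The light chain *slc7a8a*, of a type that exchanges neutral amino acids together with Slc3a2, was at 1123, 1134, 555 and 682 CPM in DTEC-like cells and at 52.4, 14.96, 24.1 and 16.6 in PTEC-like cells (log2 fold change of PTEC-like against DTEC-like -5.09, SE 0.43, adjusted p = 2.4e-05). The highest PTEC-like library lay more than 10-fold below the lowest DTEC-like library. A UMI of *slc7a8a* was found in 63.7% of DTEC-like and 3.74% of neutrophil-like cells (47.0% and 1.40% when thinned). Its possible partner *slc3a2a* was at 106 ± 47.1 CPM in DTEC-like cells against 72.9 in PTEC-like cells (adjusted p = 0.244). With the library as a block *slc3a2a* was lower in PTEC-like cells (log2 fold change -0.78, SE 0.24, adjusted p = 0.0292, in 4 of 4 libraries), as were *slc6a13l* (-2.18, adjusted p = 0.0209) and *slc6a6b* (-0.96, adjusted p = 0.00883).

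*slc7a1*, a cationic amino acid carrier, was at 68.5, 85.7, 63.9 and 70.0 CPM in DTEC-like cells and between 0.998 and 1.75 in PTEC-like cells (log2 fold change -5.70). *slc43a1a*, of a type that carries branched-chain amino acids, was at 266, 240, 139 and 136 CPM against 3.16 to 10.97 (log2 fold change -5.25). *slc43a2a* was at 49.3, 71.6, 89.7 and 93.7 CPM against 0 to 4.08 (log2 fold change -5.13). *slc7a3b* (log2 fold change -3.15) and *slc38a10* (-0.82) were the other members higher in DTEC-like cells. By PTEC-like cells alone *slc7a1*, *slc43a1a*, *slc43a2a* and *slc7a3b* would not have passed the filter on low counts, so their places are given as a description. The call of *slc38a10* was lost with total UMIs in place of TMM normalization.

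*slc43a2b* was shared by both segments. It was at 504.6 ± 232 CPM in PTEC-like and 443.5 ± 218 in DTEC-like cells (log2 fold change 0.12, adjusted p = 0.813) and in 43.3% and 56.4% of their cells. In both classes libraries 1 and 2 had more than libraries 3 and 4, and the classes overlapped. Calls were lost without library 1 or 2 for *slc7a3a*, *slc38a2*, *slc38a5b* and *slc38a6*, without library 3 for *slc7a3a* and *slc6a14* (adjusted p = 0.0562), and without library 4 for *slc7a3a*, *slc38a2*, *slc38a5b* and *slc6a6a* (adjusted p = 0.0711). Within library pairs, 22 of the 23 calls remained in libraries 1 and 2, 20 in libraries 3 and 4, and 19 in both.

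**Figure D2:**
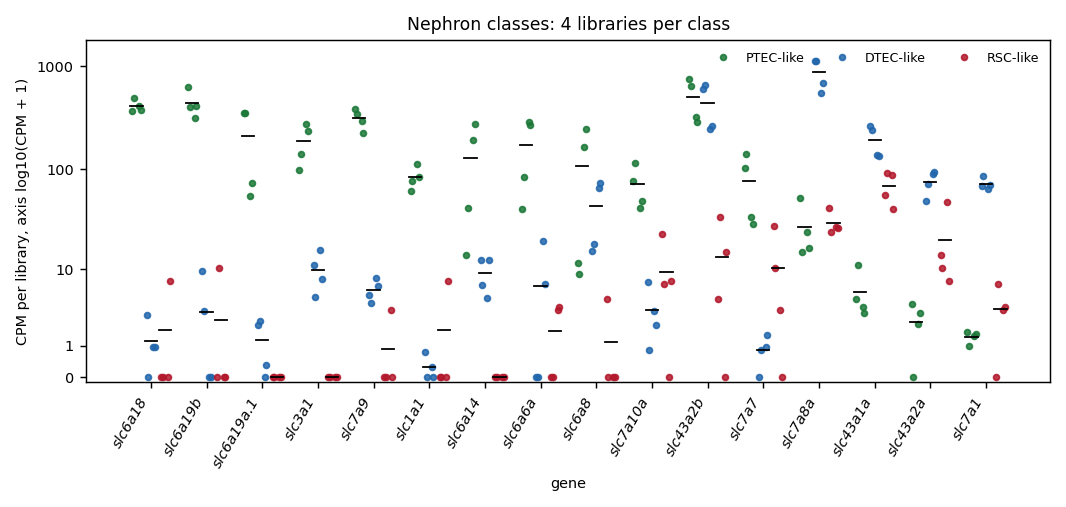
CPM of 16 members in PTEC-like, DTEC-like and RSC-like cells; each point is a library, bars are means over 4 libraries, and the axis is log10(CPM + 1). The first 7 genes have all PTEC-like libraries above all DTEC-like and RSC-like libraries, *slc43a2b* overlaps between PTEC-like and DTEC-like cells, and the last 4 are highest in DTEC-like cells.

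RSC-like cells were then compared with all other cells. More members were lower than higher in the nephron progenitors. Of 57 members tested, 2 were higher (9.58% of 18798 genes) and 20 lower (21.1% of genes), with a median log2 fold change of -1.51 for the members (-0.88 with the 9 members at 0 UMIs set to their bounds) and -0.47 for all genes. The RSC-like sums held 1067580 UMIs, and 25 members had no UMI there, for which 3 UMIs would be 2.81 CPM. The split of all genes depended on the scaling. It was 1801 higher and 3963 lower with TMM normalization and 3474 higher and 2102 lower with total UMIs, where the median log2 fold change was 0.28 for all genes and -0.82 for the members. Within library pairs, 14 of the 22 calls remained in libraries 1 and 2, 16 in libraries 3 and 4, and 12 in both. The count of members called moved with the libraries and the choice of cells. It was 13, 11, 15 and 14 without libraries 1, 2, 3 and 4, 12 without the cells of high doublet scores, of which none was higher, 12 with total UMIs in place of TMM normalization (2 higher and 10 lower), and 9 for cells chosen by a *six2a* or *six1b* UMI.

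*slc6a1b*, a homolog of a GABA carrier of neurons, was at 9.30, 10.3, 13.6 and 14.99 CPM in RSC-like cells and at no more than 0.291 in all others in the 4 libraries. It passed the filter on low counts only through the RSC-like cells, so its place among the higher members is given as a description. It had a UMI in 10 of 88 cells (11.4%, exact 95% interval 5.59 to 19.9%), against 0.125% of neutrophil-like cells. After thinning it was in 2 of 78 cells. It passed the filter on low counts neither without the cells of high doublet scores nor for cells chosen by a *six2a* or *six1b* UMI.

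*slc38a4* was at 13.9, 20.6, 47.6 and 33.7 CPM in RSC-like cells against 1.26 to 5.05 in all others (log2 fold change 2.74, SE 0.61, adjusted p = 0.00694). The groups did not overlap, but the call was lost in libraries 1 and 2 alone (log2 fold change 1.58, adjusted p = 0.208) and without the cells of high doublet scores (1.59, adjusted p = 0.229). The follicle-like cells that were left out of this class had 164 CPM of *slc38a4*.

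Among the lower members, *slc43a3a* had no UMI in RSC-like cells against 18.2 to 26.3 CPM in all others, at least 7.83-fold lower. *slc6a14*, *slc3a1* and *slc6a13l* had none either, with bounds of at least 1.85-fold, 1.41-fold and 1.23-fold lower. Members without a UMI passed the filter on low counts only through the other cells, so their places are a description. *slc43a3a* was also low in PTEC-like (1.43 CPM), VEC-like (3.1) and RIC-like cells (5.0), and highest in erythroid-like cells (207). *slc7a9* was at 0, 0, 3.40 and 0 CPM against 5.18 to 14.5 (log2 fold change -3.99). *slc7a5*, the carrier of large neutral amino acids of dividing cells, was at 2.96 ± 2.04 CPM against 17.3 (log2 fold change -3.36). By RSC-like cells alone neither *slc7a9* nor *slc7a5* would have passed the filter on low counts, so their places are a description too. The taurine carrier copy *slc6a6b* was at 18.3 ± 13.2 against 84.5 (log2 fold change -2.92, adjusted p = 0.00036) and *slc7a3a* at 98.4 ± 80.1 against 306 (log2 fold change -2.35, adjusted p = 0.00267). By class, *slc7a3a* was at 68.8 CPM in PTEC-like cells, against 911 in neutrophil-like and 707 in KMSC-like cells. *slc7a8a* was at 29.8 ± 8.13 against 78.8 CPM (log2 fold change -2.18, adjusted p = 0.000136). The calls of *slc43a3a*, *slc6a6b*, *slc7a3a* and *slc7a8a* remained in all alternatives. For cells chosen by a *six2a* or *six1b* UMI, *slc7a9* (log2 fold change 0.40, adjusted p = 0.828), *slc3a1* (0.37, adjusted p = 0.835) and *slc6a18* (0.54, adjusted p = 0.712) had the opposite direction and did not pass the test. With the library as a block *slc38a3b* was higher (log2 fold change 2.62). *slc6a19b* (-2.47), *slc6a6a* (-2.52), *slc7a11* (-2.06) and *slc6a19a.1* were called as lower, and *slc6a19a.1* had no UMI and was at least 1.73-fold lower. By RSC-like cells alone these lower members would not have passed the filter on low counts, nor would *slc38a3b* by other cells alone. Their places are given as a description.

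Compared with PTEC-like cells, RSC-like cells had little of the reabsorptive set. Of 27 members tested, 14 were lower (28.2% of 7215 genes) and 3 higher (21.0% of genes), with median log2 fold changes of -1.75 for the members and -0.09 for all genes. With total UMIs in place of TMM normalization, 12 were lower and 5 higher (1424 and 2605 of all genes). Of the 17 calls, 16 remained in libraries 1 and 2 alone, 16 in libraries 3 and 4 alone, and 15 in both. *slc6a19a.1* and *slc3a1* had no UMI in RSC-like cells and were at least 74.4-fold and 67.2-fold lower than in PTEC-like cells. *slc6a18* had 7.49 CPM in library 4 and none in libraries 1 to 3 (log2 fold change -8.19). *slc7a9* (log2 fold change -8.65), *slc6a19b* (-7.76), *slc6a6a* (-6.99), *slc1a1* (-5.91) and *slc43a2b* (-5.71) were the next. By RSC-like cells alone none of these named lower members would have passed the filter on low counts, so their places are given as a description. With the library as a block *slc1a5* was lower too (log2 fold change -1.93, SE 0.52, adjusted p = 0.00701, in 4 of 4 libraries).

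The 3 members higher in RSC-like cells belong to different types. *slc7a3b* was at 23.3, 30.9, 64.6 and 18.7 CPM against 0 to 3.50 (log2 fold change 3.58). The glycine carrier *slc6a9* was at 97.6, 34.3, 54.4 and 59.9 CPM against 3.02 to 5.54 (log2 fold change 3.19). *slc43a1a* was at 55.8, 92.6, 88.4 and 41.2 CPM against 3.16 to 10.97 (log2 fold change 3.09). All 3 passed the filter on low counts only through the RSC-like cells, so their place among the higher members is given as a description. None of these overlapped between the classes, and 15 of the 17 calls remained in all alternatives in which they could be tested. Without the cells of high doublet scores, 11 members were lower and 1 higher (1539 and 733 of all genes). *slc7a3b* and *slc6a9* then did not pass the filter on low counts. Without the liver-gene cells 15 were lower and 3 higher (2029 and 1534 of all genes). All comparisons with PTEC-like cells share these cells, so they are not independent. None of the 3 genes *slc7a3b*, *slc6a9* and *slc43a1a* passed the test between RSC-like and all other cells. There *slc6a9* was at 61.6 against 50.8 CPM (log2 fold change -0.49, adjusted p = 0.211). *slc43a1a* was at 69.5 against 51.6 (-0.31, adjusted p = 0.396) and *slc7a3b* at 34.4 against 33.2 (-0.67, adjusted p = 0.17). For all 3 the mean CPM was higher in RSC-like cells, while the fit with TMM normalization gave a lower level.

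To see how dividing red blood cell precursors differ, cycling erythroid-like cells (1191) were compared with other erythroid-like cells (1435). The other erythroid-like class joins a cluster chiefly of libraries 1 and 2 with a cluster chiefly of libraries 3 and 4. Of 22 members tested, 4 were higher in cycling cells (27.9% of 9035 genes) and 5 lower (20.4% of genes), with median log2 fold changes of -0.06 and 0.01 for members and all genes. The split depended on the scaling, since total UMIs in place of TMM normalization gave 10 higher and 4 lower. Among all genes total UMIs gave 4242 higher and 646 lower. With the library as a block there were 8 higher and 7 lower (3047 and 2593 of all genes). All 9 calls remained then, as they did within each library pair and without each library.

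*slc38a5b*, a glutamine and glycine carrier type, was at 69.9, 50.4, 49.0 and 40.6 CPM in cycling cells and at 0.526, 1.45, 2.31 and 3.75 in the others (log2 fold change 3.89). It had a UMI in 26.8% of cycling and 1.18% of other cells, at medians of 18546 and 5518 UMIs, and in 5.0% and 0.215% after thinning. *slc43a1a* was at 86.6, 72.8, 97.7 and 100.3 CPM against 4.34 to 11.2 (log2 fold change 2.63, SE 0.27, adjusted p = 7.73e-05). *slc1a3a*, a glutamate and aspartate carrier, was at 14.3 ± 2.03 CPM against 1.08 (log2 fold change 2.88), and *slc7a3b* at 25.8 ± 1.02 against 2.21 (2.75). For all 4 genes the classes did not overlap. *slc38a5b*, *slc1a3a* and *slc7a3b* passed the filter on low counts only through the cycling cells, so their place among the higher members is given as a description.

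The purine nucleobase carrier type *slc43a3a* was lower in cycling cells, at 86.2, 89.3, 89.3 and 110 CPM against 171, 219.9, 208 and 229 (log2 fold change -1.89, SE 0.16, adjusted p = 2.64e-05). *slc6a9*, which supplies glycine for heme synthesis in mammalian erythroid cells, was at 64.0 ± 14.9 CPM against 140.2 (log2 fold change -1.87, SE 0.23, adjusted p = 0.000191). *slc7a8a* (log2 fold change -1.42), *slc6a6b* (-2.37) and *slc6a13l* (-2.19) were lower as well. The call of *slc6a13l* was lost with total UMIs (log2 fold change -1.47, adjusted p = 0.0612). By cycling cells alone *slc6a13l* would not have passed the filter on low counts. *slc6a6b* was at 10.9, 10.0, 27.1 and 33.7 CPM against 31.0, 28.9, 99.6 and 106, so it was lower in each library although the classes overlapped across libraries. *slc7a5* was at 44.5 ± 18.9 against 15.1 CPM (adjusted p = 0.087) and *slc38a5a* at 70.6 ± 6.59 against 30.8 (adjusted p = 0.153). *slc1a4* was at 44.0, 40.8, 1.05 and 1.095 CPM in cycling cells of libraries 1 to 4 (adjusted p = 0.377).

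With the library as a block *slc1a4* passed the test (log2 fold change 1.71, SE 0.37, adjusted p = 0.00267, higher in 4 of 4 libraries), as did *slc7a5* (0.71, adjusted p = 0.0222), *slc7a3a* (0.57) and *slc6a16b* (0.45) as higher and *slc6a16a* (-2.04) and *slc3a2b* (-0.44) as lower. The CPM of *slc3a2b*, however, was higher in cycling cells in 3 of 4 libraries, with means of 117 against 83.8. Its direction thus differed between CPM and the fit with TMM normalization.

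**Figure D3:**
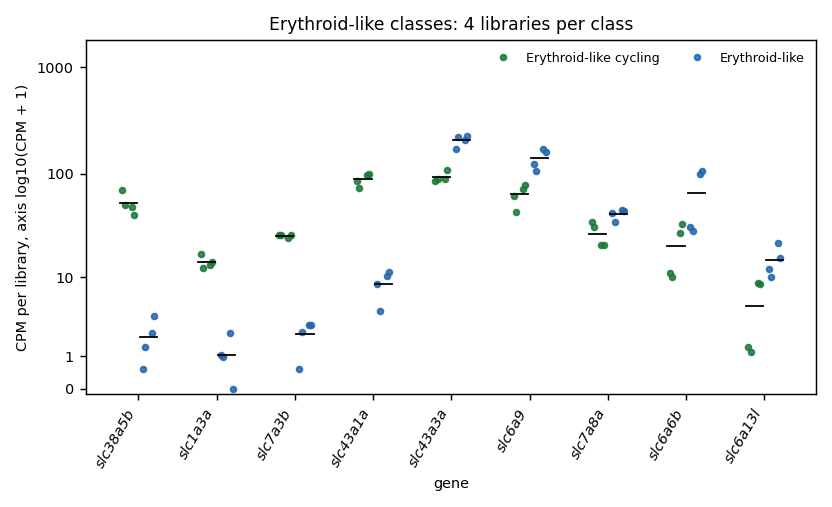
CPM of the 9 members that differed between cycling and other erythroid-like cells; each point is a library, bars are means over 4 libraries, and the axis is log10(CPM + 1). The first 4 genes lie higher in all cycling libraries, the next 5 are lower on average, and *slc6a6b* is divided by library pair in both classes.

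Macrophage-like cells (1721) and neutrophil-like cells (8027) are the main myeloid classes, and they carried different members. Of 36 tested, 13 were higher in macrophage-like cells (21.5% of 14680 genes) and 10 in neutrophil-like cells (18.9% of genes), with median log2 fold changes of 0.24 and 0.01 for members and all genes. All 23 calls remained within each library pair and with the library as a block. Neutrophil-like cells of libraries 1 and 2 and of libraries 3 and 4 lay mostly in different clusters.

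The exchanger subunits were among the largest differences. *slc7a7* was at 316, 305, 249.7 and 249.7 CPM in macrophage-like cells and at 0.406 to 0.611 in neutrophil-like cells (log2 fold change 8.82). It had a UMI in 61.0% and 0.299% of cells (32.4% and 0.0915% when thinned). Its heavy chain partner type *slc3a2a* was at 495, 495, 297 and 290 CPM against 0.907 to 2.60 (log2 fold change 7.50). By neutrophil-like cells alone neither gene would have passed the filter on low counts, so their places are given as a description. The light chain *slc7a8a* was at 311, 302, 294 and 272 CPM against 5.12 to 7.88 (log2 fold change 5.11, SE 0.20, adjusted p = 6.41e-07). The other heavy chain copy *slc3a2b* differed less, at 87.2 ± 7.29 against 27.4 CPM (log2 fold change 1.40, adjusted p = 0.00196). *slc7a7* was also counted in PTEC-like cells (77.1 ± 54.9 CPM), where its call depended on cells with high doublet scores, and in VEC-like cells (42.5). Its pattern over the classes was nearest to *slc38a7* (r = 0.966).

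Of the 6 slc43a members, 3 were higher in macrophage-like cells. By neutrophil-like cells alone these 3 would not have passed the filter on low counts, so their places are given as a description. *slc43a3b* was at 183, 210, 192 and 157 CPM against 0.812 to 2.72 (log2 fold change 6.79). *slc43a2a* was at 200, 193, 481 and 486 CPM (log2 fold change 7.01) and *slc43a2b* at 229.7, 176, 72.8 and 80.2 (7.0). The *slc43a2a* and *slc43a2b* copies differed between the library pairs in opposite directions. *slc43a1a* (log2 fold change -0.04, adjusted p = 0.895) and *slc43a3a* (-0.06, adjusted p = 0.956) did not pass the test, and *slc43a1b* did not pass the filter on low counts. *slc38a6* (log2 fold change 3.86) and the lysosomal carriers *slc38a7* (2.86) and *slc36a1* (2.50, adjusted p = 0.000542) were higher too, as were *slc1a3a* (2.28), *slc7a9* (2.74) and *slc6a13* (0.81). *slc7a9* had only 4.97 ± 1.9 CPM there, and its call was lost without library 3 (adjusted p = 0.0547), as was that of *slc6a13* without library 4 (adjusted p = 0.0519). By neutrophil-like cells alone *slc7a9* would not have passed the filter on low counts.

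Neutrophil-like cells had the highest mean of *slc7a3a*, a cationic amino acid carrier, at 615, 666, 1193 and 1171 CPM against 73.9, 52.9, 48.9 and 67.0 in macrophage-like cells (log2 fold change -4.19, SE 0.27, adjusted p = 6.26e-06). This gene alone held 88811 UMIs, the most of any member. *slc38a5a* (log2 fold change -3.27), *slc7a5* (-3.23), *slc36a4* (-2.63), *slc6a16b* (-2.33) and *slc38a2* (-2.08) were higher in neutrophil-like cells as well. *slc38a2*, a neutral amino acid carrier that responds to amino acid shortage, was at 76.8, 103, 118 and 168 CPM against 22.8 to 41.95 (adjusted p = 0.000284). *slc7a4*, an orphan relative of the cationic carriers, was at 5.67 ± 3.77 CPM against 0.159 (log2 fold change -5.23). It passed the filter on low counts only through the neutrophil-like cells, so its place is given as a description.

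*slc7a11*, which exchanges cystine for glutamate, was at 9.99, 10.8, 78.5 and 66.6 CPM in neutrophil-like cells and at 5.12, 4.56, 12.2 and 16.5 in macrophage-like cells (log2 fold change -2.32, adjusted p = 0.037). The classes overlapped across the library pairs, and the call was lost without library 2, 3 or 4 and with total UMIs. *slc1a5* was at 17.8 ± 17.9 and 9.0 ± 8.5 CPM in neutrophil-like and macrophage-like cells (adjusted p = 0.4). It was lower in macrophage-like cells in 4 of 4 libraries, at 2.16, 2.13, 12.1 and 19.7 CPM against 2.6, 3.29, 26.4 and 38.9, and passed the test with the library as a block (log2 fold change -1.18, SE 0.15, adjusted p = 0.000371). The block also called *slc6a6b* (0.37), *slc38a9* (0.67) and *slc6a4a* (0.99) as higher and *slc38a5b* (-0.64) and *slc7a10a* (-2.36) as lower in macrophage-like cells. *slc7a10a* had only 11 UMIs in macrophage-like cells and passed the filter on low counts only through the neutrophil-like cells. By neutrophil-like cells alone *slc6a4a* would not have passed it. The places of both are given as a description.

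**Figure D4:**
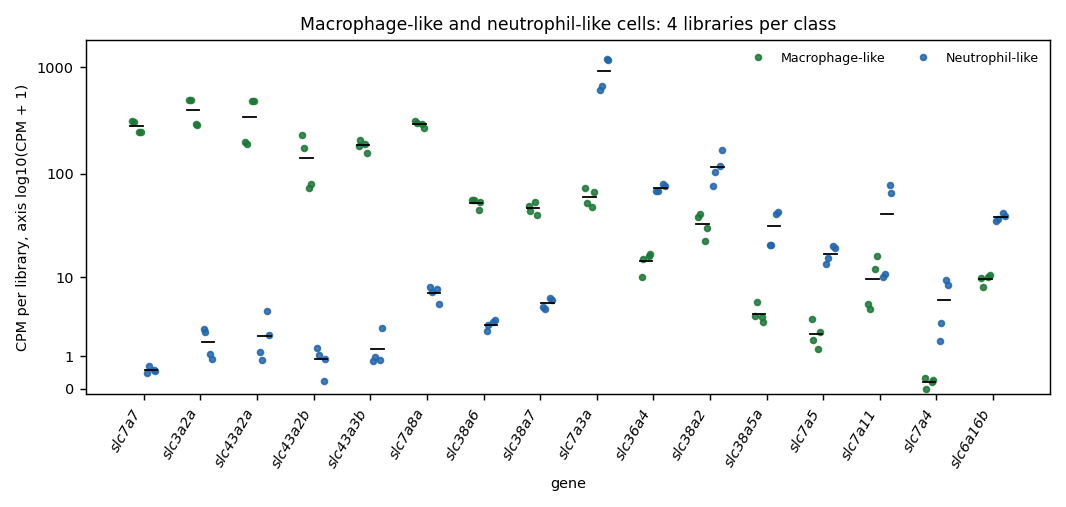
CPM of 16 members in macrophage-like and neutrophil-like cells; each point is a library, bars are means over 4 libraries, and the axis is log10(CPM + 1). The first 8 genes lie higher in all macrophage-like libraries, the other 8 have higher means in neutrophil-like cells, and *slc7a11* overlaps between the classes.

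Outside these comparisons, levels are given as a description, and highest means highest among the 15 named classes. KMSC-like cells shared the high *slc7a3a* of neutrophil-like cells, at 608, 628, 792 and 801 CPM, and these classes overlapped. VEC-like cells had the highest *slc43a1b*, at 185, 195, 87.0 and 83.3 CPM, and did not overlap with the next class. Their *slc38a10* (130.3 ± 41.8 CPM), *slc6a4a* (52.0 ± 31.3) and *slc38a9* (25.5 ± 15.7), a lysosomal arginine sensor in mammals, overlapped with the next class. RIC-like cells had the highest *slc38a5b*, at 159, 134, 106 and 80.7 CPM, above the 52.5 ± 12.4 of cycling erythroid-like cells without overlap. The noradrenaline carrier *slc6a2* was at 12.5, 3.52, 64.3 and 55.5 CPM there, its highest mean among the named classes, with 4, 1, 23 and 22 UMIs of 177 in all cells.

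Cycling thrombocyte-like cells had the highest *slc38a2*, at 186, 177, 173 and 176 CPM, without overlap with the next class, and *slc7a6* (25.9 ± 6.76), with overlap. Cycling B-like cells had the highest *slc7a10a* (82.7 ± 37.6), which overlapped with PTEC-like cells, and held *slc38a4* at 36.3, 41.7, 37.8 and 35.6 CPM, whereas other B-like cells had 0.795 CPM. T/NK-like cells had *slc6a14* at 33.9, 36.6, 54.4 and 54.3 CPM and *slc6a6a* at 40.3 ± 15.9 CPM, in second place after PTEC-like cells and overlapping with them. *slc7a3b* had its highest mean in cycling T/NK-like cells (66.2 ± 13.5 CPM, overlapping with cycling B-like cells), of which 40.4% were among the cells with the highest doublet scores.

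The other members were low in the named classes. Of the 77, 34 reached 30 CPM in none of the 15 named classes. Follicle-like cells and unnamed clusters are not among these classes. The low members include most carriers of neurotransmitters, such as the dopamine carrier *slc6a3* (highest mean 0.438 CPM), the second serotonin carrier *slc6a4b* (0.492), the GABA carriers *slc6a1a* (0.236), *slc6a1l* (1.03) and *slc6a11a* (2.27, but 301.9 in the follicle-like cells left out), and the glycine carrier *slc6a5* (7.55). The glutamate carriers *slc1a2a*, *slc1a2b*, *slc1a3b*, *slc1a6*, *slc1a7a*, *slc1a7b* and *slc1a8a* had highest means between 0.257 and 1.93 CPM. *slc38a3a*, *slc38a3b*, *slc38a8a*, *slc38a8b*, *slc38a11*, *slc6a15*, *slc6a16a*, *slc6a17*, *slc7a10b*, *slc7a14a* and *slc7a14b* lay between 0.676 and 20.3 CPM in their highest class. At these levels differences between classes were not detectable for most of them.

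Other genes of amino acid handling were followed by lists. Of 24 other amino acid and peptide carriers and partners, 13 were tested in PTEC-like against all other cells, of which 8 were higher and none lower, with a median log2 fold change of 1.59. Among all genes tested there, 19.2% were higher and 24.4% lower. The 8 carriers that were higher include the peptide carriers *slc15a1b* and *slc15a2*, the cystine exporter of lysosomes *ctns*, and the mitochondrial carriers *slc25a12*, *slc25a15a*, *slc25a29*, *slc25a38a* and *slc25a38b*. All 5 tested members of this list were lower in RSC-like than in PTEC-like cells (median -4.30), where 28.2% of all genes were lower. Of these carriers, 5 of 9 were higher in macrophage-like than in neutrophil-like cells (21.5% of all genes), and 1 was lower (18.9% of all genes).

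Of 18 genes of the amino acid response and serine synthesis, 7 were higher and 3 lower in PTEC-like cells, with a median of 0.40. Among all genes, 19.2% were higher and 24.4% lower in PTEC-like cells. The higher genes of the list were those of serine and glycine synthesis (*phgdh*, *psat1*, *psph*, *shmt1*, *shmt2*) with *aldh18a1* and *sesn2*, and the lower were *asns*, *atf4b* and *cebpb*. In RSC-like against all other cells, *psat1* and *phgdh* were higher and 7 of the 18 genes lower, with a median of -0.94. Among all genes there, 9.58% were higher and 21.1% lower. In cycling erythroid-like cells, *atf4a*, *asns*, *psph*, *shmt1*, *aldh18a1* and *pycr1b* were higher and *ddit3* lower among 16 tested, while the median of the list was -0.54 and 27.9% of all genes were higher. In macrophage-like against neutrophil-like cells, 2 of 16 were higher and 9 lower, among them *asns*, *atf4b*, *chac1* and *trib3*, with a median of -0.65. Among all genes there, 21.5% were higher and 18.9% lower.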

How the data were processed

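Kidney cells were captured on BD Rhapsody and measured by a 3′ whole transcriptome protocol. For each library the authors deposited a table of raw UMI counts by cell. Per the methods, fastp checked the reads and UMI-tools counted the molecules, and the submitters' processing notes name Seurat 4.2 and GRCz11. Genes absent from the table of a library entered as 0. The aligner is not given in the sources used here.

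All 31008 cells were log-normalized and clustered in Seurat 5.3.0 (R 4.3.3) with 2000 variable genes, 30 components and a resolution of 0.6, scaled within each library and without the members, the listed genes and RSC markers. Scaling within each library was chosen because an earlier analysis found an RSC-like cluster only so. Of 28 clusters, 8 were unnamed. A name needed a mean log2 marker ratio of at least 1 (pseudocount 10 CPM), over 50% of the markers past it and at least 3 markers detected. No other class could have more markers among the 10 leading genes of the cluster. Clusters far shallower than their libraries, with no marker of the class among those 10 genes, stayed unnamed. Scrublet (scanpy 1.11.5) called 6 cells, so doublets were not removed, and an alternative left out the highest 6% of scores. The members and lists were chosen with earlier results of these data known. The liver genes, and leaving out cells with them, were chosen after seeing the data.

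For each class, UMI counts were added up within each library and tested with edgeR 4.0.16 (TMM, filterByExpr, quasi-likelihood), and DESeq2 1.42.0 was an alternative. The fit was tested on simulated data. The sums of both classes in a comparison share a library, and their deviations from the class means correlated between 0.321 and 0.762 in the 6 comparisons, so libraries pair the sums. In each comparison the text names up to 8 members per direction, by size of change among those past an adjusted p of 0.05 and alike in 4 of 4 libraries, and a fixed set. Shares have exact 95% intervals, which cover counting error only. For thinning, 5409 cells under 2000 UMIs were left out. Named classes rest on rebuilt clusters and can differ from those of the study. No sequences are printed.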

Additional observations from a re-analysis of the deposited data

Results flagged for a closer look

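For each member, the 4 libraries of its highest class were examined for a library far from the others, and 8 of 77 such groups had one. The rule flags any group with UMIs in 1 library only, so this number is not set against chance. In 5 of the 8 groups the flagged library held 1 or 2 UMIs and the others none. These are *slc1a2a* (3.52 CPM) and *slc38a8a* (3.52 CPM) in RIC-like cells of library 2, *slc1a6* (7.49 CPM) in RSC-like cells of library 4, and *slc1a8a* (1.03 CPM, library 3) and *slc6a4b* (1.97 CPM, library 2) in cycling thrombocyte-like cells.

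The largest gap was that of *slc6a15*, a neutral amino acid carrier of neurons in mammals, in cycling T/NK-like cells, with 61.8 CPM (37 UMIs) in library 3 and between 0 and 2.74 CPM in the others. In all 4 libraries, 6 of the 94 cells had a UMI. *slc6a13* was at 22.3 CPM in library 1 of that class (4 UMIs) against 13.9 to 15.1. *slc7a6* in cycling thrombocyte-like cells was at 35.9 CPM in library 3 against 21.6 to 23.6. Their causes were not tested.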

How the results depend on the processing

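Of 1766 refits of called members under the alternatives, 1611 kept the direction and the call, 150 kept the direction only and 5 reversed. The reversed were *slc38a4* in PTEC-like against all other cells, with libraries 3 and 4 alone (-1.85) and without liver-gene cells (-1.68), and *slc3a1* (0.37), *slc6a18* (0.54) and *slc7a9* (0.40) in RSC-like against all other cells, for cells chosen by a *six2a* or *six1b* UMI. The cause was not tested. Against the 22 members called in RSC-like cells, total UMIs in place of TMM normalization gave 12, removing high doublet scores 12, the UMI choice 9, and leaving out a replicate 11 to 15. Against the 9 of 22 tested members called in erythroid-like cells, total UMIs gave 14 of 22 and the replicate block 15 of 22. Libraries 1 and 2 alone gave 16 of 21, and libraries 3 and 4 alone 19 of 30. Of all genes, 4363 of 9035 were called there in the main fit, 4888 with total UMIs and 5640 with the block. The library pairs alone called 5246 of 8524 genes (1 and 2) and 6791 of 12266 (3 and 4). The replicate block lost only *slc7a6* in PTEC-like against all other cells. In the comparisons in the order of the report it called 39, 26, 27, 18, 15 and 29 members, against 34, 23, 22, 17, 9 and 23 without it. Of all genes, the block called 9577, 4420, 6854, 4012, 5640 and 8301, against 8616, 3480, 5764, 3546, 4363 and 5929 without it. Total UMIs moved the median log2 fold change of all genes from -0.28 to -0.45, -0.04 to 0.12, -0.47 to 0.28, -0.09 to 0.49, 0.01 to 0.76 and 0.01 to 0.31 in the comparisons in the order of the report, and changed no direction of a called member. Of all genes, RSC-like cells had 5764 called against all others and 3553, 3550 and 3700 without high doublet scores, with the UMI choice and without library 2, and 3546 against PTEC-like cells and 2272 without high doublet scores. Erythroid-like cells had 4363, and 6791 in libraries 3 and 4 alone. Scaling genes over all libraries gave no RSC-like cluster, so RSC-like cells have no value there. The 88 RSC-like cells limit what can be said of members under 2.81 CPM.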

Other observations

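Clusters without a name held members at levels like those of the named classes. Cluster 12, with *hdr* and *mycb* among its leading genes, had 160.7 CPM of *slc38a5b*, and cluster 9, with *gata2b* and *runx1t1*, had between 87.8 and 108 CPM of *slc38a5b* in the 4 libraries. Cluster 11, with *lyz* and *kita* among its leading genes, had 281.9 CPM of *slc7a3a*, and cluster 3 had 230.1. Cluster 1, shallow cells with erythroid markers and a median of 712 UMIs that come nearly all from libraries 1 and 2, had 217.1 CPM of *slc6a6b* and 141.9 of *slc43a3a*.

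The 39 follicle-like cells, of libraries 1 and 2 only, held the highest levels of several members. *slc6a11a*, a GABA carrier type, was at 301.9 CPM there against at most 2.27 in a named class. *slc38a2* was at 304.9 CPM, *slc6a4a* at 256.0, *slc3a2b* at 220.6, *slc1a3a* at 177.0 and *slc38a4* at 164.4. These are values of 39 cells and were not tested.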
